A study of Mus musculus with 4 samples.

Results

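Mural and fibroblast-like cells were looked for in a sort that was meant to hold endothelium. The rule summed unique molecular identifiers (UMIs, each standing for 1 captured transcript) in every cell barcode over 3 gene sets: R (Rgs5, Acta2, Col1a1, Sfrp2 and Mfap4), S (Sox9, Twist1, Vcan, Tbx20, Prrx2 and Hapln1) and E (Pecam1, Cdh5, Egfl7 and Cldn5). Members were chosen by these measured sums alone, as barcodes with R of 5 or more, R above S and E of 0, which left 811 of 21920 barcodes. The libraries were made from C57Bl6J mouse hearts at embryonic day 12 (E12, 37 animals pooled), embryonic day 15 (E15, 48 pooled), postnatal day 2 (P2, 21 pooled) and 8 weeks of age (Adult, 6 pooled). Cells were sorted as CD31+/CD45-, frozen, and profiled by 10x 3′ single-cell RNA sequencing, with 1 library per stage and no treatment or genetic change. Embryonic hearts were digested with collagenase/dispase, longer at E15 than at E12, P2 and adult hearts with collagenase II before collagenase/dispase, and adult suspensions also went through red blood cell lysis. After thawing, dead cells were removed with a kit at E12 and E15, whereas P2 and adult cells were sorted again for live cells, so stage, digestion, this second selection and library cannot be told apart. The E12 library held 8122358 UMIs over 5732 barcodes, the E15 library 7079759 over 6062, the P2 library 29645059 over 5884 and the adult library 7650091 over 4242, with medians of 1241, 1013, 4531.5 and 1510 UMIs per barcode. With 1 library per stage no difference could be tested, and every interval given covers counting error only, at 95%.

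Mural cells are the pericytes of capillaries and the smooth muscle cells of arteries and veins. They wrap the endothelial tube, take up PDGF signals through Pdgfrb and Notch signals through Notch3, and, in smooth muscle, contract through actin, myosin and their regulators. Fibroblasts lie between vessels and muscle and secrete the collagens, proteoglycans and elastic fibers of the heart. In the developing heart both descend largely from epicardial cells, and fibroblast precursors and valve-cushion mesenchyme share many matrix genes.

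Among the genes of R, Rgs5 (chromosome 1, 169655501 to 169695813 in GRCm38.p6) encodes a regulator of G-protein signaling that marks pericytes, and Acta2 (chromosome 19, 34240336 to 34255585) encodes smooth muscle actin. Col1a1 (chromosome 11, 94936224 to 94953042) encodes a chain of type I collagen, Sfrp2 (chromosome 3, 83765750 to 83774314) a secreted Wnt modulator, and Mfap4 (chromosome 11, 61485431 to 61488708) a protein of elastic fibers. Kept cells with more UMIs of Rgs5 and Acta2 than of the other 3 genes are called Rgs5/Acta2 cells here, and those with fewer are called matrix cells. Contractile genes were prominent among the leading genes of the Rgs5/Acta2 cells at E12 and in the adult, and their promoters were searched for CArG boxes, in which a run of A and T bases lies between a pair of C and a pair of G and to which serum response factor binds. The pattern is the same on both strands, and no other motif was searched. Of the 15 contractile genes listed and Acta2, 12 had a RefSeq promoter, and 1 of these (8.33%) held a box in the 250 bases before the gene start, against 439 of all 27025 genes with a promoter window (1.62%). No box was found in this window for the 10 genes with a promoter among the mural list and Rgs5. None was found for the 19 among the fibroblast and fibrillar collagen lists, Col1a1, Sfrp2 and Mfap4. The match was in Myl9, a regulatory light chain of smooth muscle myosin, and its window (chr2:156775214-156775463, + strand, GRCm38.p6) is shown because it was the only match among these genes. Myl9 was among the 10 leading genes of the Rgs5/Acta2 cells at E12, E15 and in the adult, and also of the matrix cells at E12. Capitals mark the box, which begins 161 bases before the start.
Myl9: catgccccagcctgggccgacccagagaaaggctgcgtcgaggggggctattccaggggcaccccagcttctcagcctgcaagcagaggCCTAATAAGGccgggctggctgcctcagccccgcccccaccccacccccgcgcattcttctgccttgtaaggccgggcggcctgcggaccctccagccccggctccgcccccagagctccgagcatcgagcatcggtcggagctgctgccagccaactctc

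The 811 cells lay mostly in the embryonic libraries. At E12 they numbered 420 of 5732 barcodes (7.33%, exact binomial interval 6.67 to 8.03), at E15 331 of 6062 (5.46%, 4.90 to 6.06), at P2 9 of 5884 (0.153%, 0.07 to 0.29) and in the adult 51 of 4242 (1.2%, 0.896 to 1.58). The order of the first 2 stages depended on depth and threshold. With each barcode thinned to 500 UMIs, which kept 5649, 5698, 5884 and 4242 barcodes, 56 of the E12 barcodes (0.991%) passed, as did 147 at E15 (2.58%), 9 at P2 and 38 adult ones (0.896%). Thinning also removes E UMIs, and 3, 19, 7 and 12 of these barcodes held E UMIs at full depth and were not among the 811. With R of 10 or more, the shares were 1.52% at E12 and 2.75% at E15. The condition on E left unequal shares to choose from, since E was 0 in 51.8% of E12 barcodes, 29.2% of E15, 0.187% (11) of P2 and 2.38% (101) of adult barcodes. The sort on CD31 selects against cells without it, and its part in the shares was not tested. Barcodes that met the R and S conditions but held an E UMI numbered 98, 94, 54 and 68 in the same order. Among barcodes with E of 3 or more, a type that should lack these genes, R reached 5 in 1.65%, 1.47%, 0.637% and 0.834%.

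**Figure D1:**
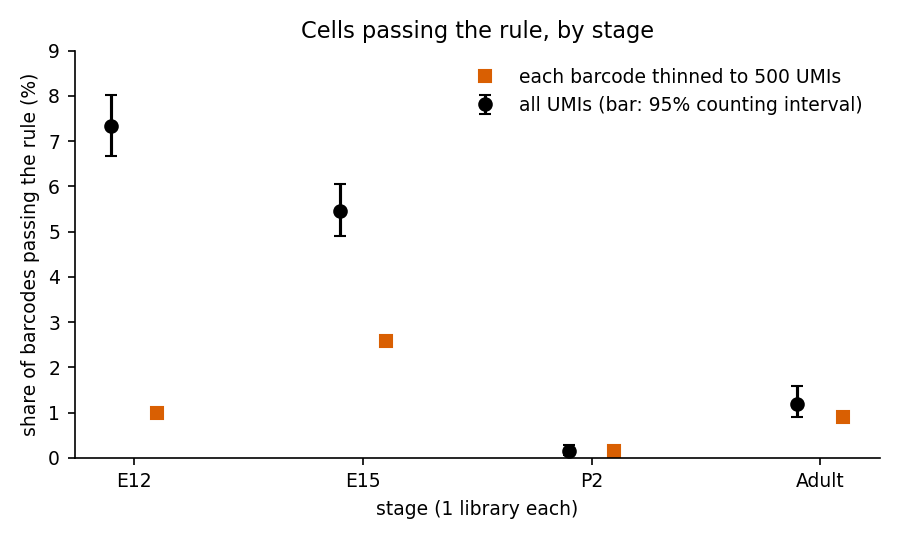
The share of barcodes that passed the rule (y axis, percent) is plotted by stage (x axis), as black points with 95% counting intervals for all UMIs and as orange squares after thinning to 500 UMIs. E12 lies above E15 in the black points (7.33% and 5.46%) and below it in the squares (0.991% and 2.58%).

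The threshold on R fell in a gap of the P2 library and within a continuous run of values in the embryonic ones. Among barcodes that met the other conditions at E12, 155 with R of 4 lay just outside and 129 with R of 5 just inside, the median R of the cells kept was 6 and the highest was 39. At E15 the same counts were 48 and 45, with a median of 10 and a highest of 64. At P2 there was none with R of 3 to 6 and the median was 33, and in the adult 3 barcodes lay at 4 and 2 at 5, with a median of 21 and a highest of 119. Free RNA was measurable at E12 alone, where barcodes under 100 UMIs were deposited. These held R genes at 1368 CPM (UMIs per 1000000 UMIs) against 4826 CPM in the kept cells, or 1.94 UMIs at the kept cells' median depth of 1421 UMIs, and E genes at 1395 CPM. Most of this free RNA was of the matrix genes, with Col1a1 at 482, Sfrp2 at 483 and Mfap4 at 242 CPM against 1556, 1479 and 484 CPM in the kept cells. Rgs5 was at 81.0 and Acta2 at 79.6 CPM, against 469 and 838 in the kept cells. No barcode sequence among the kept cells was shared between libraries, although 255 were shared among all barcodes.

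Rgs5/Acta2 cells made up 73 of the 420 cells at E12 (17.4%), 18 of 331 at E15 (5.44%), 5 of 9 at P2 (55.6%) and 26 of 51 in the adult (51.0%). Matrix cells numbered 332, 305, 4 and 25, and 15 cells at E12 and 8 at E15 were tied. The sides were far apart in the adult, where the smaller of the sums was 0 in 84.3% of cells and 3 or more in 5.88%. At E12 it was 0 in 34.0% and 3 or more in 21.9%, and at E15 these shares were 68.9% and 11.5%. The 73 Rgs5/Acta2 cells at E12 had a median of 2 UMIs of the 3 matrix genes, and the part of free RNA, richer in those genes, in the E12 split was not tested. The adult split also depended on depth. The adult matrix cells had a median of 3439 UMIs and the Rgs5/Acta2 cells 1999, and after thinning to 500 UMIs 34 of the 38 adult barcodes that passed (89.5%) fell on the Rgs5/Acta2 side. Of the 26 Rgs5/Acta2 cells 25 passed on their side after thinning, and of the 25 matrix cells 1 did. Leaving out Acta2 took the Rgs5/Acta2 share to 5.24% at E12 and 1.51% at E15, while it was 55.6% at P2 and 49.0% in the adult. No setting left out Rgs5, so the weight of the 2 genes was not compared.

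**Figure D2:**
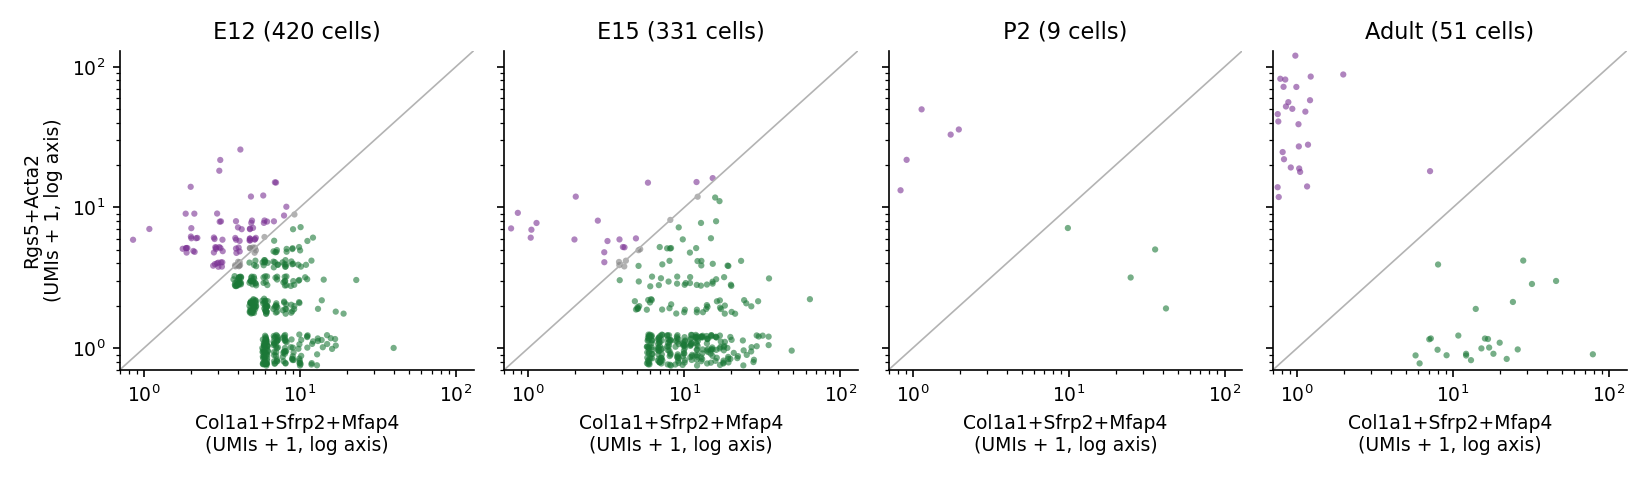
Each point is 1 cell that passed the rule, with Col1a1, Sfrp2 and Mfap4 UMIs plus 1 (x, log axis) against Rgs5 and Acta2 UMIs plus 1 (y, log axis), slightly jittered, purple above and green below the diagonal and gray on it. The adult points fall into separate corners, while many E12 points lie close to the diagonal.

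The names were checked on the genes outside the rule among the 10 genes with the largest fold in each side against all other barcodes of its stage. Genes of the rule took 4 of these places in the E12 and 3 in the E15 matrix cells. They took 2 in the E12, E15 and adult Rgs5/Acta2 cells and 1 in each other group, so the places left were unequal. In the adult the names held. Contractile or mural genes took 7 places among the Rgs5/Acta2 cells (Tagln, Myl9, Tpm2, Myh11, Ndufa4l2, Rgs4 and Des), and fibroblast or collagen genes took 5 among the matrix cells (Gsn, Dcn, Dpt, Fbln1 and Col1a2). At P2 these counts were 5 and 3, and the E15 matrix cells had 4 (Col1a2, Dcn, Col3a1 and Ogn). At E12 the Rgs5/Acta2 cells had 6 contractile genes, but Vtn, Higd1b and Ndufa4l2, which mark mature pericytes, were at 0 of 117882 UMIs and Kcnj8 had 3 UMIs, so they are not called pericytes. The E12 matrix cells had no fibroblast or collagen gene outside the rule among their 10, which were Sfrp2, Col1a1, Cxcl12, Fbln5, Mfap4, Eln, Gpc3, Tagln, Rgs5 and Myl9. They are therefore called by their leading genes and not fibroblasts. At E15, 5 of the 10 leading genes of the 18 Rgs5/Acta2 cells were heart muscle genes (Myl2, Actc1, Myl3, Mb and Tnnc1), and 1 cell held 107 of that side's 122 cardiomyocyte-list UMIs. Cell by cell, the summed mural and contractile lists exceeded the summed fibroblast and fibrillar collagen lists in 26 of 26 adult Rgs5/Acta2 cells and in 0 of 25 matrix cells. At P2 they did so in 3 of 5 and 0 of 4, and after thinning to 500 UMIs in 1 of 5 and 0 of 4, so the name of the P2 Rgs5/Acta2 cells did not hold cell by cell at that depth. At E15 the counts were 10 of 18 and 6 of 305, and at E12 they were 40 of 73 and 45 of 332. After the same thinning they were 24 of 26 and 0 of 25 in the adult. At E15 the thinned counts were 12 of 18 and 7 of 298, and at E12 37 of 73 and 54 of 330. Vim, which endothelium also expresses, was also left out of the fibroblast list at full depth. The counts were then 50 of 73 and 72 of 332 at E12, 12 of 18 and 8 of 305 at E15, and 4 of 5 and 0 of 4 at P2. Leaving out Vim was chosen after seeing that 86.5% of E12 endothelial barcodes fell on the fibroblast side with Vim and 45.4% without it.

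**Figure D3:**
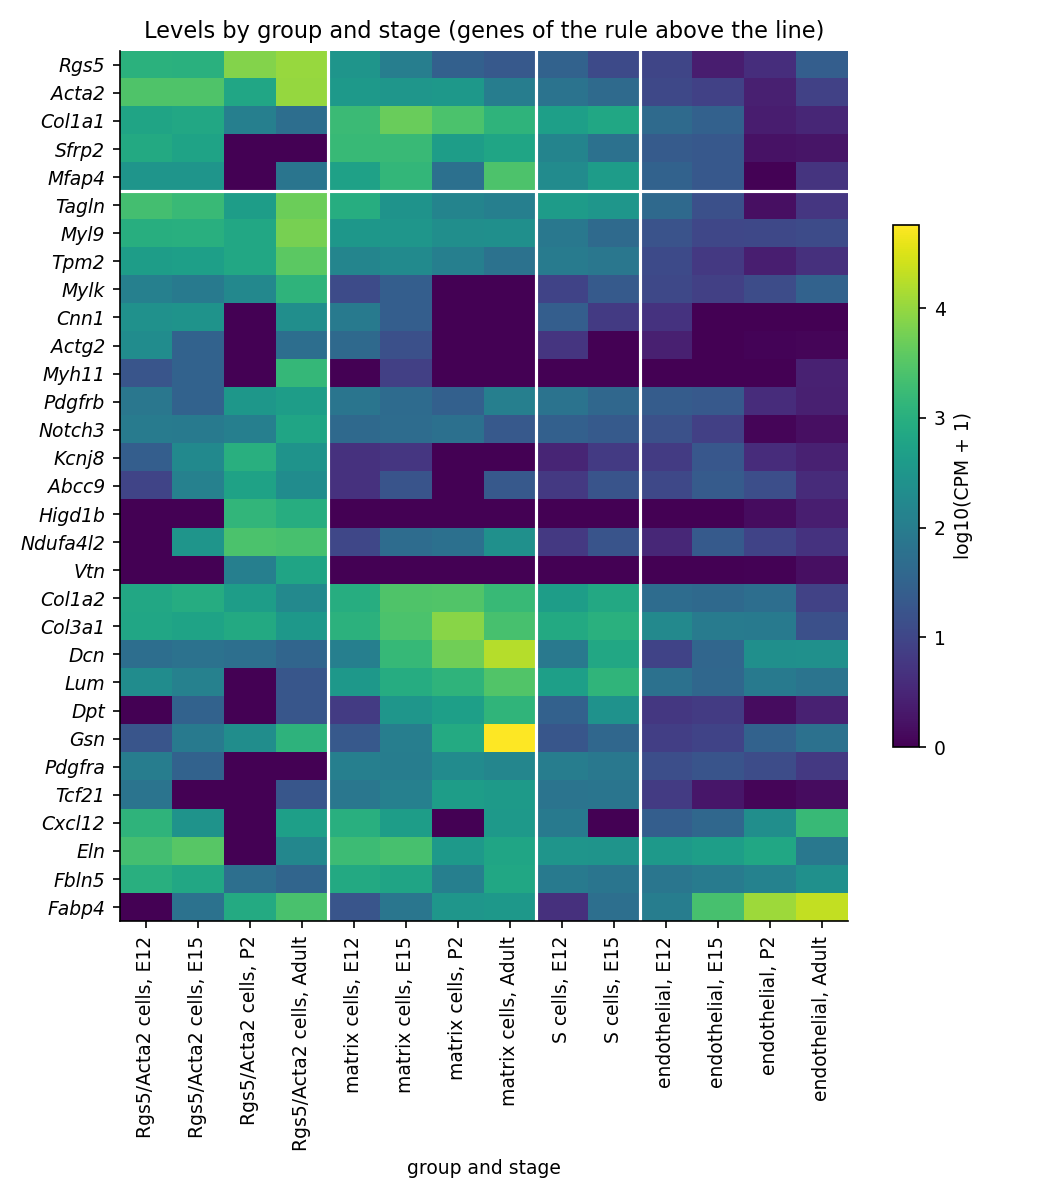
Color gives the level of each gene (rows) as log10(CPM + 1) in the Rgs5/Acta2 cells, matrix cells, S cells and endothelial barcodes of each stage (columns), with the genes of R above the white line. Higd1b and Vtn are dark in the embryonic columns, and Gsn is brightest in the adult matrix cells.

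At E12 most of the contractile genes compared were higher in the Rgs5/Acta2 cells, and few genes of the other lists of mural or matrix genes differed. Of 15 contractile genes, 9 reached 20 UMIs over both sides and were compared, and 6 were at least 2-fold higher in the Rgs5/Acta2 cells, with a median log2 difference of 1.35, where 1.35% of all 4082 genes compared were that much higher, 3.99% that much lower, and the median over all was -0.01. These and later log2 differences were computed after adding 20 CPM to each side. The counting interval was clear of equality for all 55 genes that were higher and for 82 of the 163 that were lower. Tagln, an actin-binding protein, stood at 2129 CPM against 906 (ratio 2.35, 2.01 to 2.74). Myl9 stood at 967 against 336 CPM (2.88, 2.26 to 3.66), the actin regulator Cnn1 at 254 against 87.6 (2.90, 1.77 to 4.69) and Actg2, an actin of smooth muscle, at 204 against 41.0 (4.96, 2.67 to 9.29). Mylk, the kinase that switches smooth muscle myosin on, had 14 UMIs against 6 (10.6, 3.83 to 33.7). Single cells were thin in these counts, since Tagln ranged from 0 to 16 UMIs among the 73 Rgs5/Acta2 cells with a median of 2. Of 16 fibroblast genes 8 were compared and none passed 2-fold, with a median of -0.13. None of 10 elastic fiber genes did either, and elastin (Eln) was at 2214 CPM in the Rgs5/Acta2 cells and 1810 in the matrix cells. Of 7 fibrillar collagen genes compared, 1 was higher and 1 lower, with a median of -0.69 and Col3a1 at 662 against 1143 CPM (0.579, 0.451 to 0.734). Of 8 mural-list genes compared 2 were higher and none lower, with a median of 0.32, and Pdgfrb was nearly level, at 76.3 and 69.0 CPM (1.11, 0.47 to 2.34). Both epicardial genes compared were lower in the Rgs5/Acta2 cells (median -2.06, or -1.47 with genes at 0 set at 3 counts), as were all 6 erythroid genes, of which 2 could be compared and neither passed 2-fold once 1 erythroid-rich matrix cell was left out. The matrix cells held more Tbx18, an epicardial transcription factor, at 108 against 17.0 CPM, and the atrial light chain Myl7, at 145 against 8.48 CPM. Immediate-early genes, which tissue digestion can induce, summed to 1434 CPM in the Rgs5/Acta2 cells and 2192 in the matrix cells, with 3 of 10 lower in the first, and their part in the differences was not tested.

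In the adult the sides differed over most of these lists. All 9 contractile genes compared were higher in the 26 Rgs5/Acta2 cells (median log2 5.20, or 4.57 with genes at 0 set at the 3 counts that a 0 allows), against 16.2% of all 1280 genes compared. Their summed level was 22126 CPM against 720 in the matrix cells. The list held 1273 UMIs in the Rgs5/Acta2 cells and 70 in the matrix cells. The minimum of 20 UMIs thus favored genes high in the Rgs5/Acta2 cells, which were themselves chosen partly on Acta2. No conclusion is drawn from the count of 9. Tagln was at 4867 against 113 CPM (43.0, 23.7 to 87.1), Tpm2, a tropomyosin, at 3702 against 61.7 (60.0, 27.1 to 165), and Myh11, the myosin heavy chain of mature smooth muscle, at 1495 CPM against 0 of 97168 UMIs, at least 48.4-fold higher on a floor of 3 counts over the group. Among mural genes 10 of 11 compared were higher, including Notch3 at 626 against 20.6 CPM (30.4, 7.83 to 261) and Pdgfrb at 452 against 113 (3.99, 1.91 to 8.95). The mural list held 629 UMIs against 97, so no conclusion is drawn from that count either. The pericyte gene Higd1b had 54 UMIs in the Rgs5/Acta2 cells and 0 in the matrix cells, at least 30.4-fold higher. The transcription factors Nr2f2 (435 against 20.6 CPM) and Mef2c (1043 against 51.5 CPM) lay on the same side.

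In the 25 adult matrix cells all 13 fibroblast genes compared were higher, as were 5 of 6 fibrillar collagen and 7 of 8 elastic fiber genes, where 23.2% of all genes were lower in the Rgs5/Acta2 cells. The median log2 difference of Rgs5/Acta2 over matrix cells was -4.56 for the fibroblast list (-4.14 with genes at 0 set at 3 counts) and -0.15 over all genes. Of 5 collagen-processing genes compared 4 were higher in the matrix cells, as were both Wnt modulators compared. The UMIs of these lists lay mostly in the matrix cells, at 9361 against 246 for fibroblast, 537 against 56 for fibrillar collagen and 512 against 47 for elastic fiber genes. The minimum of 20 UMIs thus favored genes high there, and no conclusion is drawn from these counts of genes. The fibroblast list made up 96338 CPM, led by gelsolin (Gsn), an actin-severing protein, at 57498 CPM against 1182. In single matrix cells Gsn ran from 53 to 537 UMIs with a median of 203, and in the Rgs5/Acta2 cells from 0 to 19 with a median of 2, so the groups did not overlap. The proteoglycan decorin (Dcn) ran from 19 to 214 UMIs with a median of 40 in the matrix cells and from 0 to 1 in the others. Its level was 16981 against 34.8 CPM. Lum, a related proteoglycan, was at 2974 against 17.4 CPM, and Apoe, a lipid carrier, at 12463 against 487 CPM. The matrix protease Mmp2 (556 CPM) and the growth factor Igf1 (309 CPM) had no UMI in the Rgs5/Acta2 cells. Cxcl12, a chemokine, was close on both sides, at 487 and 381 CPM (1.28, 0.753 to 2.15). Immediate-early genes summed to 7700 CPM in the Rgs5/Acta2 cells and 11928 in the matrix cells, with 1 of 9 higher and 3 lower, and their part was not tested. Over E12 and the adult together, 1111 genes were compared at both stages, and 20 passed 2-fold the same way, 10 on each side. Those of the Rgs5/Acta2 cells included Mylk, Tpm2, Tagln and Myl9.

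The adult Rgs5/Acta2 cells were split further by their higher gene, a split chosen after their values were seen. Rgs5 exceeded Acta2 in 15 cells and Acta2 exceeded Rgs5 in 11. The Rgs5-led cells had a summed mural list of 14356 CPM against 8030 (ratio 1.79, 1.52 to 2.11) and a contractile list of 12689 against 30129 CPM (0.421, 0.371 to 0.478). Single cells overlapped, although the median contractile count was 9 UMIs against 91. Rgs5-led cells with Rgs5 and Acta2 at 80 and 39, 46 and 35, and 29 and 22 UMIs held 86, 68 and 71 contractile UMIs. Acta2-led cells at 21 and 26, and at 10 and 16, held 46 and 45. The split therefore did not mark distinct groups. Genes of the ATP-sensitive potassium channel of pericytes were on 1 side, with Kcnj8 at 16 UMIs in 5 of the Rgs5-led cells and 0 of 31133 UMIs in the Acta2-led cells, and Abcc9 at 12 UMIs and 0. Higd1b (1667 against 321 CPM, ratio 5.19, 2.57 to 11.6), Vtn (1023 against 225 CPM, 4.55, 1.93 to 12.4) and Notch3 (947 against 353 CPM, 2.68, 1.27 to 6.03) were higher in the Rgs5-led cells. Des, the intermediate filament of muscle and also a mural-list gene, was lower there (682 against 1253 CPM, 0.544, 0.293 to 0.974). Myh11 (871 against 2024 CPM, 0.431, 0.255 to 0.704), Tagln (2008 against 7291 CPM, 0.275, 0.20 to 0.373) and Myl9 (3409 against 8319 CPM, 0.41, 0.319 to 0.523) were lower. Tagln had UMIs in 6 of 15 Rgs5-led and 11 of 11 Acta2-led cells. The intervals of Pdgfrb, at 530 and 385 CPM (1.38, 0.591 to 3.26), and of Rgs4, at 758 and 1156 CPM (0.655, 0.359 to 1.16), spanned equality. The median depth was 1635 UMIs in the Rgs5-led and 3092 in the Acta2-led cells, and its part in the counts of cells with a UMI was not tested. Immediate-early genes moved with the split, at 2348 against 12238 CPM (0.192, 0.144 to 0.252), with UMIs in 8 of 15 and 11 of 11 cells, or 1089 against 10604 CPM without the highest cell of each group. The endothelial list was at 4508 against 2987 CPM (1.51, 1.14 to 2.00) and the fibroblast list at 5455 against 3276 (1.66, 1.28 to 2.17), and the part of these lists in the split was not tested.

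**Figure D4:**
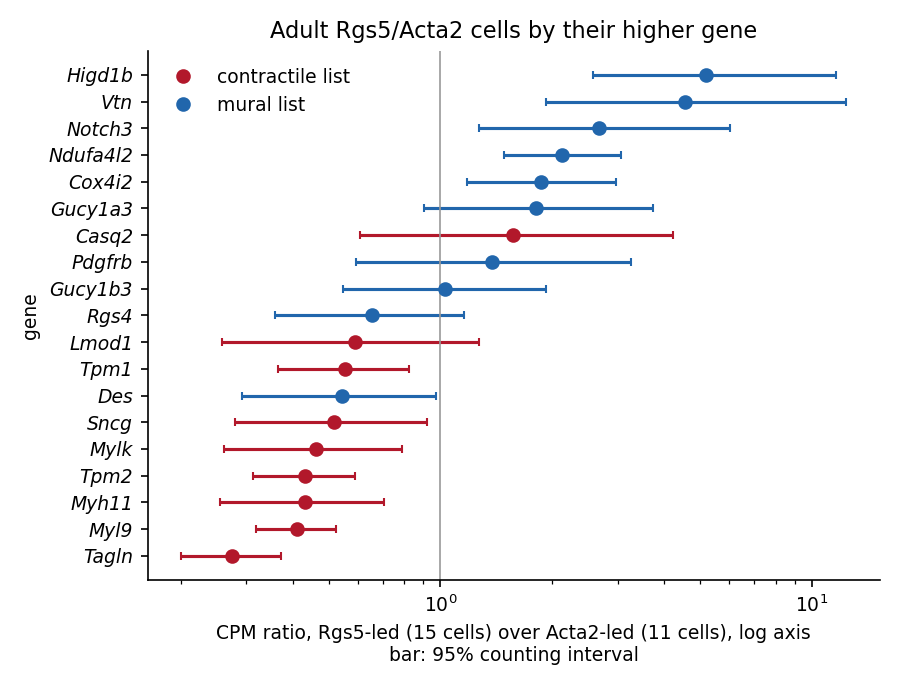
The ratio of CPM in the 15 Rgs5-led over the 11 Acta2-led adult cells (x, log axis) is shown for mural-list (blue) and contractile-list (red) genes with 20 or more UMIs over both, with bars for 95% counting intervals. Higd1b and Vtn lie farthest right at 5.19 and 4.55, and Tagln farthest left at 0.275.

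The 9 P2 cells can be given singly. The 5 Rgs5/Acta2 cells had 49, 31, 24, 21 and 12 Rgs5 UMIs, and Acta2 at 0, 1, 11, 0 and 0 in the same cells. Their Col1a1 was 0 or 1. Pericyte genes were high in them, with Ndufa4l2 at 2631 CPM, Higd1b at 1370, Kcnj8 at 987 and Abcc9 at 548 over 18242 UMIs, while Myh11 and Cnn1 were at 0. The 4 matrix cells had 34, 30, 21 and 6 Col1a1 UMIs and were deeper, with 7707 to 10549 UMIs each against 2667 to 4878. Col3a1 (8301 CPM), Dcn (5336 CPM), Ptn (4320 CPM) and the imprinted growth regulator Dlk1 (2231 CPM) were prominent in them. The matrix cell with 6 Col1a1 UMIs also held 5 of Acta2 and 1 of Rgs5. Immediate-early genes summed to 15106 CPM in these matrix cells, 6798 in the Rgs5/Acta2 cells and 4999 in P2 endothelial barcodes, with 167, 158, 20 and 190 UMIs in the single matrix cells. In the Rgs5/Acta2 cells 1 cell held 66 of the 124 UMIs, and the level without it was 3787 CPM, below that of the endothelial barcodes. Their part in the P2 values was not tested.

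Matrix cells differed between stages in the fibroblast genes. From E12 to E15, 8 of 12 fibroblast genes and 6 of 9 fibrillar collagen genes compared were at least 2-fold higher at E15 and none lower, where 2.47% of 5475 genes were higher and 1.28% lower. The median log2 difference was 1.67 for the fibroblast list, 1.18 for the collagens and -0.05 over all genes. The endothelial list moved with them, from 358 CPM at E12 to 818 at E15, with 3 of 10 genes higher, none lower and a median of 0.84. The epicardial list went from 291 to 112 CPM, with 2 of 3 genes lower, none higher and a median of -1.13. Of 4 cardiomyocyte genes compared 1 was higher and 2 lower. The part of these lists in the differences was not tested. Dcn stood at 110 CPM at E12, 1565 at E15, 5336 at the P2 stage and 16981 in adult cells. Dpt, a binding partner of decorin, stood at 5.59, 317, 480 and 1286 CPM, and Mfap5, a microfibril protein, at 7.46, 141, 395 and 1822 CPM. Gsn was at 20.5 CPM at E12 and 109 at E15, had 2 to 13 UMIs in each of the 4 P2 cells, and was at 57498 CPM in the adult. Ratios of E15 over E12 were 14.2 for Dcn (10.9 to 18.9) and 2.56 for Lum (2.14 to 3.07). Tagln (276 against 906 CPM) and the chromatin protein Hmga2 (41.0 against 276 CPM) were lower at E15, as were Bmp4, a growth factor of cushion and outflow tissue (27.3 against 172 CPM), and all 6 erythroid genes compared. The erythroid difference came mostly from 1 E12 cell with 1708 of 1830 UMIs, and the E12 level was 3412 CPM with it and 229 without it. Without that cell 3 genes could be compared and all 3 were lower.

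From E15 to the adult, 12 of 16 fibroblast genes were higher and 1, Postn, lower in the matrix cells, where 15.1% of 3526 genes were higher and 17.0% lower, with a median log2 difference of 1.96 for the list and 0.02 over all genes. Apoe (12463 against 428 CPM, ratio 29.1, 24.9 to 34.1) and Pi16 (998 against 18.2 CPM), a marker of adventitial fibroblasts, were among the higher. Postn, secreted by activated and young fibroblasts, was at 61.7 against 916 CPM. Of 8 mural genes compared 4 were higher and 1 lower, with the list at 998 against 522 CPM. Of 5 contractile genes 3 were lower and none higher, with the list at 720 against 1515 CPM. The part of these 2 lists was not tested. Of 10 fibrillar collagen genes compared 1 was higher and 2 lower (median -0.47), near the shares over all genes. Of 11 elastic fiber genes compared 2 were higher and 5 lower (median -0.11). Col1a1, a gene of the rule, was at 1245 against 4611 CPM. H19, Dlk1 and Igf2, imprinted genes of growth, were named for their large differences and not from a list. H19 had 0 of 97168 UMIs in the adult against 3857 CPM at E15, at least 125-fold lower, Dlk1 had 0 against 2039 CPM, at least 66.0-fold lower, and Igf2 was at 20.6 against 1504 CPM. Ptn, a heparin-binding growth factor, was at 175 against 3951 CPM. Of 8 dividing-cell genes compared 7 were lower. All 7 were at 0 in the adult cells and reached the UMI minimum through the E15 cells alone, so no conclusion is drawn from their number. The median of -2.30 became -0.96 with these set at 3 counts, and the list summed to 82.3 CPM in the adult and 848 at E15. Immediate-early genes summed to 2192 CPM in the matrix cells at E12, 4224 at E15 and 11928 in the adult, against 857, 1059 and 9930 CPM in endothelial barcodes, and their part in these differences was not tested.

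**Figure D5:**
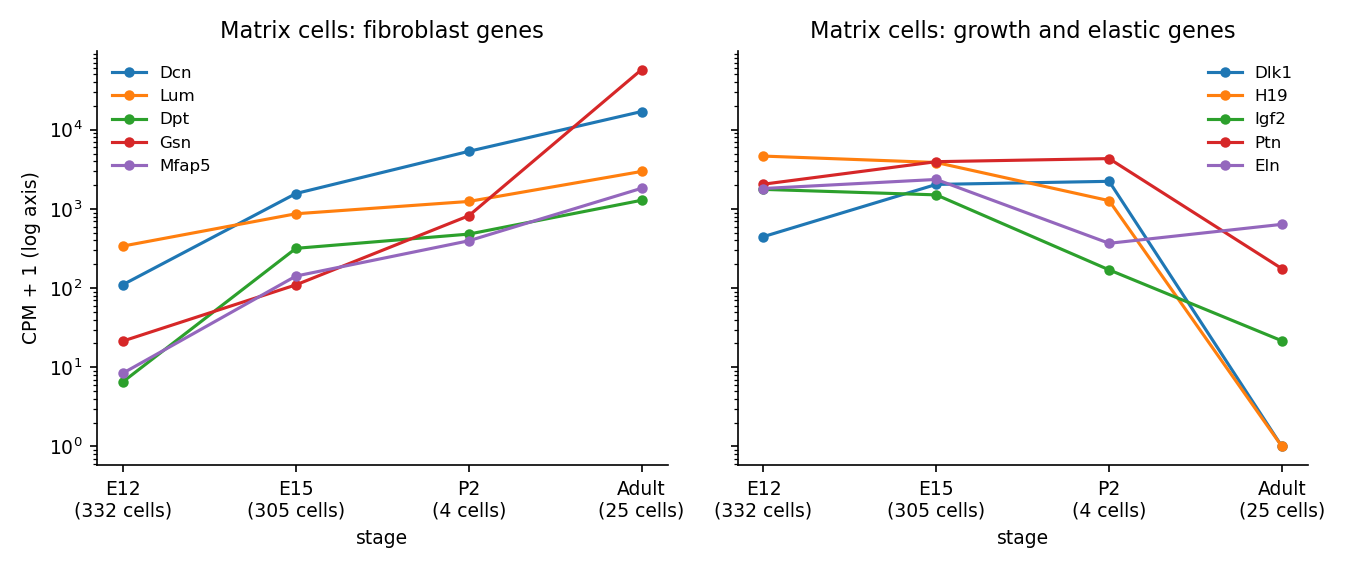
Levels in the matrix cells (CPM plus 1, y, log axis) are shown by stage (x, with the number of cells). On the left are fibroblast genes and Mfap5, a gene of the elastic fiber list, and on the right growth and elastic genes. All 5 lines on the left are highest in the adult, while Dlk1 and H19 on the right end at 0 CPM.

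The Rgs5/Acta2 cells of the adult and of E12 differed in mural and contractile genes. In the adult, 11 of 12 mural genes compared were higher (median log2 3.77, or 3.54 with genes at 0 set at 3 counts), as were 8 of 11 contractile genes with 1 lower, where 23.0% of 1279 genes were higher and 30.8% lower and the median over all was -0.19. The summed mural list stood at 679 CPM at E12, 1875 at E15, 9045 in the P2 cells and 10933 in adult ones, and the contractile list at 5573, 5172, 2686 and 22126 CPM. Tagln was already at 2129 CPM at E12 and 4867 in the adult (2.29, 1.92 to 2.72). Myh11 had 2 UMIs at E12 and 86 in the adult (88.1, 23.7 to 739). Ndufa4l2, a mitochondrial protein induced by low oxygen, went from 0 of 117882 UMIs to 2381 CPM, at least 93.6-fold higher, and Aspn, a small proteoglycan, from 0 to 1130 CPM. Elastic fiber genes were lower, 7 of 9 compared, with Eln at 156 against 2214 CPM. Their list held 47 UMIs in the adult and 613 at E12, so the minimum favored genes high at E12. No conclusion is drawn from the number of elastic fiber genes. Immediate-early genes summed to 1434 CPM at E12 and 7700 in the adult, and their part was not tested. H19, at 5802 CPM at E12, had no UMI in 57533 adult ones, at least 111-fold lower. Fabp4, a fatty acid carrier of capillary endothelium with 0 UMIs in the E12 cells, was at 2520 CPM in the adult Rgs5/Acta2 cells with UMIs in 25 of 26, at 350 CPM in adult matrix cells and at 21131 CPM in adult endothelial barcodes. The whole endothelial list summed to 3685 CPM in the adult Rgs5/Acta2 cells, 1286 in the matrix cells and 28903 in endothelial barcodes, with Emcn, Plvap and Npr3 of its 12 genes at 0 in the first and Kdr, Tek and Tie1 at 1 UMI each. The genes of E are not on this list. Its part in the adult values was not tested.

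The embryonic cells were next set beside the S cells (S of 3 or more, S above R, E of 0), which were chosen for mesenchyme genes such as Sox9, Vcan and Hapln1. There were 796 S cells at E12, 116 at E15 and 0 in both later libraries, where the 3 counts that a 0 allows come to 0.051% and 0.0707% (exact upper limits 0.0627% and 0.0869%). At E12 the kept cells were higher by 2-fold in 0.907% of 8047 genes and lower in 0.671%, and at E15 in 5.15% of 4133 and 2.2%. Genes outside the rule that were higher at both stages included Cxcl12 (1088 against 88.6 CPM at E12, ratio 12.3, 10.1 to 15, and 451 CPM against 0 of 185436 UMIs at E15, at least 27.9-fold). Eln was at 1944 against 299 CPM at E12 (6.50, 5.81 to 7.27) and 2567 against 286 at E15 (8.98, 6.82 to 12.1). Fbln5, which assembles elastic fibers, was at 831 against 92.2 and 623 against 70.1 CPM, and the Notch ligand Jag1 at 276 against 29.5 and 157 against 43.1 CPM. The transcription factor Osr1 had 45 UMIs against 8 at E12 and 52 against 1 at E15. Lower at both stages were Lef1 (13.4 against 99.5 CPM at E12 and 18.4 against 59.3 at E15) and Nkd1 (25.2 against 91.5 and 26.5 against 173), both of the Wnt pathway, and Msx1, a cushion transcription factor (35.6 against 105 and 24.5 against 156). Col9a3, a collagen typical of cartilage, lay on the same side, at 32.6 against 122 CPM and 51.1 against 146. Of 10 contractile genes compared at E12, 4 were higher and none lower, with a median log2 difference of 0.88 against -0.05 over all genes. At E15, 3 of 6 were higher and none lower. Of 8 fibrillar collagens compared at E12 none passed 2-fold (median 0.35), while at E15 7 of 9 were higher and none lower, with a median of 1.15 against -0.05 over all genes. Of the mural genes none of 10 passed at E12 (median 0.57), and 4 of 7 were higher at E15. Fibroblast genes were higher in 1 of 11 and lower in 2 at E12 (median 0.08). At E15, 3 of 13 were higher and none lower (median 0.51). The summed level of the fibroblast list was 3085 CPM in the kept cells against 3709 in the S cells at E12, and 8247 against 8100 at E15. Cushion genes outside the rule were lower in 2 of 14 compared at E12 and 3 of 9 at E15, and 1 was higher at each stage. Of 9 PDGF and Notch signaling genes at E12, 2 were higher and none lower. Cxcl12, Eln and Fbln5 were shared by both sides of the kept cells at E12, at 1230, 2214 and 1001 CPM in the Rgs5/Acta2 cells and 1020, 1810 and 764 CPM in the matrix cells. All 6 erythroid genes compared at E12 were higher in the kept cells, but none was once the erythroid-rich cell was left out. At E15, 3 of 5 cardiomyocyte genes were higher (median 1.02), and none of the 3 that could be compared was without the cardiomyocyte-rich cell. Dividing-cell genes were lower in 3 of 10 at E15, at 846 against 1720 CPM, and their part in the E15 differences was not tested. Epicardial genes were higher in 1 of 2 compared at E12, with the list at 242 against 70.6 CPM. Immediate-early genes summed to 2027 against 1781 CPM at E12, with none of 10 past 2-fold. At E15 they summed to 4089 against 2583 CPM, with 1 of 9 higher and none lower. The part of these lists was not tested either.

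Against endothelial barcodes (E of 3 or more, R under 5), the kept cells differed in genes of most of the lists. The shares of genes higher and lower by 2-fold were 4.19% and 3.85% of 7799 at E12, 4.5% and 4.31% of 8652 at E15, and 5.57% and 9.1% of 10528 in the adult. All 12 genes of the endothelial list were lower at each of these stages, in groups that E itself had set apart. Fibroblast genes were higher in 7 of 11 compared at E12, 11 of 14 at E15 and 13 of 15 in the adult, and fibrillar collagens in 6 of 8, 8 of 9 and 8 of 8. Mural genes were higher in 5 of 8, 6 of 11 and 13 of 14, and contractile genes in 7 of 10, 5 of 9 and 9 of 10. Cushion genes were higher in 7 of 10, 6 of 10 and 2 of 8, and Wnt modulators in 5 of 6, 4 of 5 and 4 of 5, with at most 1 gene lower at any of these stages in each of the mural, contractile, cushion and Wnt lists. PDGF and Notch signaling genes were higher in 5 of 9, 2 of 9 and 3 of 9 and lower in 0, 2 and 4, with medians of 1.28, 0.01 and -0.92. Epicardial genes were higher in 2 of 3 at E12 and 1 of 3 at E15 and lower in both compared in the adult, and cardiomyocyte genes were higher in 3 of 5, 4 of 7 and 0 of 9, or 2 of 6 at E15 without the cardiomyocyte-rich cell. All 6 erythroid genes compared at E12 were higher, but none was without the erythroid-rich cell, and 4 of 5 at E15 and 3 of 4 in the adult were lower. Immediate-early genes were higher in 3 of 10, 7 of 10 and 3 of 10 and lower in 0, 0 and 2, with medians of 0.48, 1.33 and -0.10, and their part in these differences was not tested. Basement membrane genes, which endothelium also makes, were lower in 4 of 11, 5 of 11 and 5 of 12 and higher in 1, 0 and 0. Among the leading genes, and named after their values were seen, Meg3, an imprinted long noncoding RNA, was at 1154 CPM in the Rgs5/Acta2 cells and 1560 in the matrix cells at E12 against 265 in endothelial barcodes. In the adult it was at 487 and 648 CPM against 1.19. Gpc3, a proteoglycan that restrains growth signals, was at 441 and 755 CPM at E12 against 32.6.

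Markers of other cell types were present at unequal levels, the endothelial list highest in the adult Rgs5/Acta2 cells as given above, with UMIs in 26 of 26 cells and close to the 4276 CPM of their fibroblast list. Platelet genes summed to at most 110 CPM and Schwann and neural genes to at most 54.8 CPM on either side, both in the 5 P2 Rgs5/Acta2 cells, where they were 2 UMIs and 1 UMI. The leukocyte list, which the CD45 gate should remove, summed to at most 20.6 CPM on either side at any stage. In the E12 matrix cells the epicardial list summed to 291 CPM over 156 UMIs in 69 of 332 cells, led by Tbx18, with none of its 10 genes at 0, against 50.9 CPM in the Rgs5/Acta2 cells and 44.0 in endothelial barcodes. The cardiomyocyte list summed to 484 CPM in the E12 Rgs5/Acta2 cells and 526 in the matrix cells, led by Tnni1, against 196 in endothelial barcodes. At E15 it summed to 3690 CPM in the Rgs5/Acta2 cells, and to 483 without the 1 cell named above. The part of these cells in the values above was not tested. No doublet caller was run, and a kept barcode may hold more than 1 cell.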

How the data were processed

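The authors aligned reads from 10x 3′ v2 libraries to mm10 with Cell Ranger 2.2 (version per the submitters' processing notes) and deposited whole-number UMI counts per gene and barcode, not normalized, for 4 libraries of 27998 genes. The E12 matrix was unfiltered (737280 barcodes). Its cells were those with 452 UMIs or more, a cutoff set at 0.1 of the 0.99 quantile of the 3000 largest barcodes, and the other libraries were used as deposited. Members and gene lists (19 lists, 221 of 222 genes found) were chosen with earlier results of these data known. No other filter was set on cells. UMIs were summed over the cells of a group and divided by all their UMIs (CPM). Ratios carry exact conditional binomial intervals, CPM exact Poisson and shares Clopper-Pearson intervals, all at 95% and for counting error only. Genes with 20 UMIs over both sides were compared where each side had 20 cells, which the 18 E15 Rgs5/Acta2 cells and the P2 cells did not, and a difference was counted at 2-fold or more after adding 20 CPM. No test was possible with 1 library per stage. Named genes were those of the rule and lists, the 15 of largest mean log2 difference in each direction between sides and against S cells, and 10 in each direction between stages. The functions were tested on simulated data. Promoters and gene positions came from RefSeq for GRCm38.p6, the same assembly as mm10. Python 3.11.15, numpy 2.4.6, scipy 1.17.1 and pandas 2.3.3 were used. Alternatives were another R or E threshold, limits on UMIs, genes and mitochondrial share, thinning to 500 UMIs, genes left out of a side, another added CPM and another UMI minimum. Leaving out 2 cells, leaving out Vim and splitting the adult Rgs5/Acta2 cells were chosen after seeing the data.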

Additional observations from a re-analysis of the deposited data

Results flagged for a closer look

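Among E12 barcodes of 100 UMIs or more but under the cutoff of 452, which no comparison used, 5 of 1471 passed the rule. They had a median of 251 UMIs and all 5 were on the matrix side. Whether they are cells or free RNA was not tested.

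Of the genes compared at both E12 and in the adult, 3 passed 2-fold in opposite directions, and the difference between stages was not tested. Igfbp5, a binder of insulin-like growth factors, was lower in the Rgs5/Acta2 cells at E12 (log2 -1.33, 11 UMIs against 142) and higher in the adult (1.54, 35 against 19). Pde3a, a phosphodiesterase of smooth and heart muscle, had log2 -1.19 at E12 and 2.78 in the adult, over 3 and 19 UMIs in the Rgs5/Acta2 cells and 45 and 3 in the matrix cells. Ndufa8, of the respiratory chain, had log2 -1.01 and 1.66.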

How the results depend on the processing

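Of 145 alternative values for 28 results, 88 stayed within the counting interval or within 1.5 times the count, and 57 moved further. Some orders turned. The share of barcodes kept was higher at E12 than at E15 in the main setting and lower when thinned or with R of 10 or more, as the values here show. The Rgs5/Acta2 share was lower in the adult than at P2 (51.0% and 55.6%) and higher when thinned, with R of 10 or more (57.8% and 55.6%) and with limits on UMIs, genes and mitochondrial share (56.8% and 55.6%), all within the wide interval of the 9 P2 cells apart from the thinned value. Genes higher outnumbered genes lower in the kept cells against S cells at E12, but not with 5 CPM added. Against endothelial barcodes they did so at E12 and E15, but not with 5 CPM added, nor at 50 UMIs (220 and 237 at E12, 244 and 365 at E15), nor at E15 with limits on UMIs, genes and mitochondrial share (378 and 389). In matrix cells, adult over E15, genes lower outnumbered genes higher except with no UMI minimum. The share of barcodes kept at E12 (7.33%) was 12.9% with R of 3 or more, 1.52% with R of 10 or more, 8.64% with E of at most 1, 0.991% at 500 UMIs and 8.75% among barcodes of 1000 UMIs or more. At E15 (5.46%) it was 7.11%, 2.75%, 6.38% and 2.58% under the first 4 of these. With E of at most 1 it was 0.374% at P2 and 1.86% in the adult, where thinning gave 0.896%. The Rgs5/Acta2 share of kept cells at E12 (17.4%) was 24.1% with R of 10 or more, 21.4% thinned, 5.24% without Acta2 and 27.4% without Col1a1. At E15 (5.44%) these were 2.40%, 2.72%, 1.51% and 11.2%, and the thinned adult share was 89.5%.

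Counts of genes past 2-fold depended on the CPM added and the UMI minimum. For Rgs5/Acta2 against matrix cells at E12 (55 higher, 163 lower) they were 119 and 332 with 5 CPM added, 13 and 35 at 50 UMIs, and 159 and 315 with no minimum. In the adult (208 and 297) they were 95 and 107 at 50 UMIs and 1262 and 1993 with no minimum. Against S cells, 5 CPM gave 189 and 230 at E12 (73 and 54) and 341 and 194 at E15 (213 and 91), where 50 UMIs gave 91 and 33 and no minimum 324 and 174. Against endothelial barcodes, 5 CPM gave 566 and 624 at E12 (327 and 300), 623 and 892 at E15 (389 and 373) and 1104 and 2396 in the adult (586 and 958). For Rgs5/Acta2 cells, adult over E12 (294 and 394), 50 UMIs gave 97 and 200 and no minimum 1508 and 1767. For matrix cells, E15 over E12 (135 and 70), 5 CPM gave 256 and 222, and 50 UMIs 34 lower. For adult over E15 (532 and 599), 50 UMIs gave 232 and 317 and no minimum 1168 and 1050. Leaving out the erythroid-rich E12 cell and the cardiomyocyte-rich E15 cell, an alternative chosen after seeing the data, kept every count of genes within 1.5 times. No paired analysis was possible because each stage has 1 library and the stages share only the number 1. Low-count genes in the adult groups (57533 and 97168 UMIs) and the P2 cells could not be resolved at this depth, and the spread between libraries of 1 stage is unknown.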
